A study of Mus musculus with 15 samples.

Results

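Nucleosome occupancy was followed at the promoters of 10 genes that encode subunits of the BAF chromatin remodelling complex, namely Smarca4, Smarca2, Smarcb1, Smarcc1, Smarcc2, Smarcd1, Smarcd2, Smarce1, Arid1a and Arid1b. The RefSeq name of each annotated promoter was matched to a gene symbol, and every row of these genes was kept, which gave 12 promoters out of 25881. Smarca2 and Smarcd2 each had a pair of annotated transcription start sites (TSSs), named here as the long and short forms of Smarca2 and as the upstream and downstream starts of Smarcd2. The members were chosen by name and not by any measured value.

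BAF complexes use the energy of ATP to slide or evict nucleosomes. Smarca4 (Brg1) and Smarca2 (Brm) are the alternative ATPases, Smarcb1, Smarcc1, Smarcc2, Smarcd1, Smarcd2 and Smarce1 are core subunits, and Arid1a and Arid1b are alternative DNA-binding subunits of the canonical form. Active mammalian promoters typically carry a nucleosome-depleted region (NDR) just upstream of the TSS, followed by a well-positioned +1 nucleosome.

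In ChIP-MNase, chromatin is recovered with an antibody and then trimmed to nucleosomes by micrococcal nuclease on the beads. The 15 libraries came from mouse DCs differentiated in vitro from bone marrow-derived progenitor lines and from 3T3 fibroblasts, an established line. H3K4me1 libraries comprised 4 pooled sets that each combine 2 replicates (DCs without stimulation or after 1 h of LPS at 100 ng/ml, fibroblasts without stimulation or given TNF-α, 5 ng/ml, for 1 h) and 8 single libraries of fibroblasts (control or BAF knockdown, each with or without the same TNF-α stimulation, 2 replicates per condition). The remaining 3 libraries, from fibroblasts after 1 h of TNF-α, were recovered with antibodies to RNA polymerase II phosphorylated at serine 7 (pol-II S7P, 2 libraries) or serine 5 (pol-II S5P, 1 library). In BAF-knockdown cells, 1 stably expressed shRNA against a sequence shared by the Smarca4 and Smarca2 mRNAs was delivered by retrovirus, and cells were sorted for the GFP encoded by the vector. The knockdown acts on mRNA and the libraries hold DNA, so occupancy at both ATPase genes does not check it. A tag in the library names that may give the MNase amount set both replicate 1 knockdown libraries apart from the other 6 single libraries, and libraries of replicate 2 alone were therefore also compared.

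All values are occupancies relative to the surrounding chromatin, without a unit, in 10 bp bins from −1000 to 1000 bp around the TSS. Pooled sets had a mean occupancy of 1.61 to 1.63 over high-coverage promoters and single H3K4me1 libraries 0.791 to 0.804, so levels were compared only within a kind of library. Read depth is not known from these values. The share of bins with any fragment, which stands in for it, was 82.0% to 90.2% in pooled sets, 63.5% to 78.1% in single H3K4me1 libraries and 69.2% to 81.2% in pol-II libraries. Single libraries were noisy at individual promoters, and the profiles of replicates correlated across bins with a median r of 0.19 over high-coverage promoters, against 0.18 between knockdown and control libraries. An occupancy averages over the alleles of a culture, so that partial occupancy in all cells and full occupancy in some cannot be told apart. Cell identity was checked with marker promoters, of which 9 of 10 for DCs had a lower NDR ratio in DCs and 6 of 9 for fibroblasts a lower ratio in fibroblasts.

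Fragment coverage differed widely among the members. With more than 100 fragments required for high coverage, 5 of the 12 promoters passed, with 486.75 fragments at the Smarcd2 downstream start, 283 at Smarca4, 200.25 at Smarcb1, 188.25 at the Smarcd2 upstream start and 170.25 at Smarcc2. The other 7 had low coverage, from 97.5 at Smarcd1, 88.75 at Smarcc1 and 76.75 at Smarce1 down to 49 and 33.75 at the long and short forms of Smarca2, 31.75 at Arid1b and 10 at Arid1a. Both ARID subunits and both Smarca2 starts thus rest on the fewest fragments, and Arid1a lies at the 2.92nd percentile of all promoters.

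Most members are expressed by the authors' annotation. In fibroblasts 11 of the 12 promoters exceeded the activity limit of 0.02 times the mean FPKM, the exception being the Smarcd2 upstream start at 0.432 FPKM, whereas the downstream start had 8.10. In DCs 10 of 12 exceeded it. The exceptions there were Smarca4 at 4.27e-06 FPKM and the Smarca2 short form at 6.66e-08, beside 1.07 for the Smarca2 long form. FPKM is given per RefSeq row, and several annotated Smarca4 transcripts share this TSS. The value therefore does not show that Smarca4 is silent in DCs.

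The members lie on 7 chromosomes in mm9 (positions are TSSs). Smarca4 starts at chromosome 9 position 21420613 and Smarcc1 on the same chromosome at 110034528, both on the plus strand. Smarcb1 (75384359, minus) and Smarcc2 (127896292, plus) are on chromosome 10, and Smarce1 (99092331, minus) and Smarcd2 (106134286 and 106128946, minus) on chromosome 11. Smarcd1 is at 99532718 on chromosome 15, Arid1b at 4995074 on chromosome 17, the long and short forms of Smarca2 at 26679650 and 26822893 on chromosome 19, all on the plus strand, and Arid1a at 133309526 on chromosome 4 on the minus strand. The Smarca2 short form and the Smarcd2 downstream start lie inside the longer transcript. In the GENCODE annotation, other transcripts of Arid1b start 135 and 742 bp upstream of the TSS used here, one of Arid1a 371 bp upstream, and one of Smarcd2 167 bp upstream of its downstream start. The only other gene with a start within 1000 bp was Gm17349, on the opposite strand 182 bp downstream of the Smarcd1 TSS.

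Upstream sequences are shown for the ATPase genes that the shRNA addresses and for the core subunits whose NDRs are described below, 5′ to 3′ on the gene's strand, from 150 bp upstream to the base before the TSS or the first annotated exon, with matches to the motifs named in the next paragraph in capitals (matches downstream of the TSS are not shown).
Smarca4 (chr9:21420463-21420612, plus strand): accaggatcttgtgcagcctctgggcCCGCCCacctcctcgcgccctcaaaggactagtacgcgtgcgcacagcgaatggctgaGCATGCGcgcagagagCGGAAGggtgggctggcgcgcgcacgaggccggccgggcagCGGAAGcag
Smarca2 long form (chr19:26679500-26679649, plus strand): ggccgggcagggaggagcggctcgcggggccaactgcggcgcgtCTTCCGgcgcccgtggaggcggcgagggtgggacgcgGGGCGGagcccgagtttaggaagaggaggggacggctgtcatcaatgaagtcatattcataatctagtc
Smarcc1 (chr9:110034378-110034527, plus strand): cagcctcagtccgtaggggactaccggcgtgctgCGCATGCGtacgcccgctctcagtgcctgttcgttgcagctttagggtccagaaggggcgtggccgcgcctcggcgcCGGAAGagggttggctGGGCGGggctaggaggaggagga
Smarcb1 (chr10:75384363-75384509, minus strand): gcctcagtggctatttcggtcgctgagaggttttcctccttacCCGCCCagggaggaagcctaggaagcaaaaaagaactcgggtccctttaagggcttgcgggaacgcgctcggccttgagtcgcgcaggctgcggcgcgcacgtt
Smarcc2 (chr10:127896142-127896291, plus strand): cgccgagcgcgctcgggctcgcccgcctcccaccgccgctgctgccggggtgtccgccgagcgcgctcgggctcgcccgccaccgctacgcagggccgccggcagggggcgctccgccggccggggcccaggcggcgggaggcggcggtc
Smarcd2 upstream start (chr11:106134287-106134436, minus strand): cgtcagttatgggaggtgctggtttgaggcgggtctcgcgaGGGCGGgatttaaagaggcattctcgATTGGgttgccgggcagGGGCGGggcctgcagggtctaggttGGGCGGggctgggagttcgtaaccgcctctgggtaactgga

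Motifs were searched in both strands from −150 to 50 bp, as the GC box GGGCGG, the ETS core CGGAAG, the NRF1-like GCATGCG, the CCAAT box by its name, the TATA-box core TATAAA, the YY1-like GATGGCG and the AP-1 site TGACTCA. The GC box occurred in 9 of the 12 members, against 41.3% of 25736 promoters with sequence, and no member held TATAAA, which 8.40% of promoters did. GCATGCG was found at Smarca4, Smarcb1 and Smarcc1, against 3.42% of promoters, and at Smarcc1 it reads on both strands in overlapping letters. CGGAAG occurred at Smarca4, the Smarca2 long form and Smarcc1, against 16.8%, and CCAAT at the Smarcd2 upstream start alone, against 29.4%. GATGGCG was present at Smarcd1 and Smarce1 (3.60% of promoters) and TGACTCA at the Smarca2 long form (3.21%).

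The members' windows were rich in G and C, with a median GC content of 68.4% against 58.2% over all promoters and a median ratio of observed to expected CpG of 0.919 against 0.582. Smarcc2 had the highest GC content, 85.1%, and Smarcc1 the highest CpG ratio, 1.13. Lower CpG ratios set both internal starts apart, with 0.57 at the Smarca2 short form, whose GC content of 45.8% was the lowest, and 0.22 at the Smarcd2 downstream start.

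The first comparison asked how nucleosomes are arranged at these promoters in each cell-type. NDR occupancy was averaged from −150 to 0 bp and compared with the upstream flank from −1000 to −500 bp. In the pooled sets, Smarca4, Smarcb1 and Smarcc2 carried an NDR in both cell-types. Smarca4 had an NDR occupancy of 0 in DCs, 0 after LPS, 0.0187 in fibroblasts and 0 after TNF-α, beside flanks of 1.58 to 1.81. Smarcb1 had 0.25, 0.329, 0.439 and 0.319 in the same order, beside flanks of 1.52 to 1.64. Both lay below 0.5 times the flank in all 4 pooled sets, as did Arid1a, whose 10 fragments covered 40% to 49% of its bins. The single H3K4me1 libraries did not repeat this at Arid1a, where 1 of 8 had an NDR below the flank. Its mean NDR occupancy there was 1.40 in control and 1.25 in knockdown libraries.

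Smarcc2 had an NDR occupancy of 0.528 in DCs, 0 after LPS, 0.35 in fibroblasts and 0.737 after TNF-α, with flanks of 1.12 to 2, and fell below 0.5 times the flank in 3 of 4 sets. In the pooled sets, a +1 nucleosome stood downstream of these NDRs. Its occupancy from 80 to 180 bp was 2.24 to 5.77 at Smarca4 and 1.53 to 4.79 at Smarcb1. It was above the flank in all sets but LPS-stimulated DCs at Smarcb1. At Smarcc2 this window held 4.03 and 4.04 in fibroblasts and 1.61 and 0.56 in DCs, where the peak lay further downstream. The highest bin there was centred at 215 bp in both DC sets (9.2 and 13.2), and at 185 and 195 bp in fibroblasts (7.27 and 7.92). Among the 8 single H3K4me1 libraries, the +1 window exceeded the flank in 2 at Smarca4, 7 at Smarcb1 and 5 at Smarcc2. NDR occupancy in these libraries was below 0.5 times the flank in 5 at Smarca4, 7 at Smarcb1 and only 3 at Smarcc2. By library, 34.0% to 43.7% of all high-coverage promoters were below this limit, so the single libraries did not clearly repeat the NDR at Smarcc2.

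Neither Smarcd2 start had an NDR below 0.5 times the flank in 3 of the 4 pooled sets. Over the downstream start every bin held a fragment in all 4 pooled sets, and its NDR occupancy was 1.02 and 1.56 in DCs and 1.43 and 2.37 in fibroblasts, never below 0.5 times the flank. The upstream start had 1.14 and 0.781 in DCs, 1.08 in fibroblasts and 0 in fibroblasts after TNF-α. That was the only pooled set in which it fell below 0.5 times the flank. In 7 of the 8 single H3K4me1 libraries and in all 3 pol-II libraries, however, the upstream start was below this limit. The downstream start was below it in 1 of 8 and 1 of 3. The downstream start lies inside the gene and had the highest coverage of the members. In the pooled sets it lacked, at the annotated position, the depletion seen at Smarca4 and Smarcb1. GENCODE transcripts of Smarcd2 start 167 bp upstream and 104 and 149 bp downstream of this position, and none at it. The NDR window may therefore not lie at a start in use.

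Among low-coverage members, NDR values swung between sets. Arid1b had 5.32 and 0.8 in DCs and 4.53 and 0.507 in fibroblasts, and the Smarca2 short form had 2.71 and 1.5 in DCs and 4.32 and 0 in fibroblasts. Smarcd1 had 1.65 and 0 in DCs and 2.65 and 1.8 in fibroblasts. Smarcc1, which lay close to the coverage limit, had 1.92, 1.22, 2.67 and 0, and the Smarca2 long form 1.38, 0, 1.47 and 0.953. Smarce1 ranged from 0.678 to 2.32. These sets hold no replicate error, so no difference between DCs and fibroblasts or upon stimulation was tested in them.

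**Figure D1:**
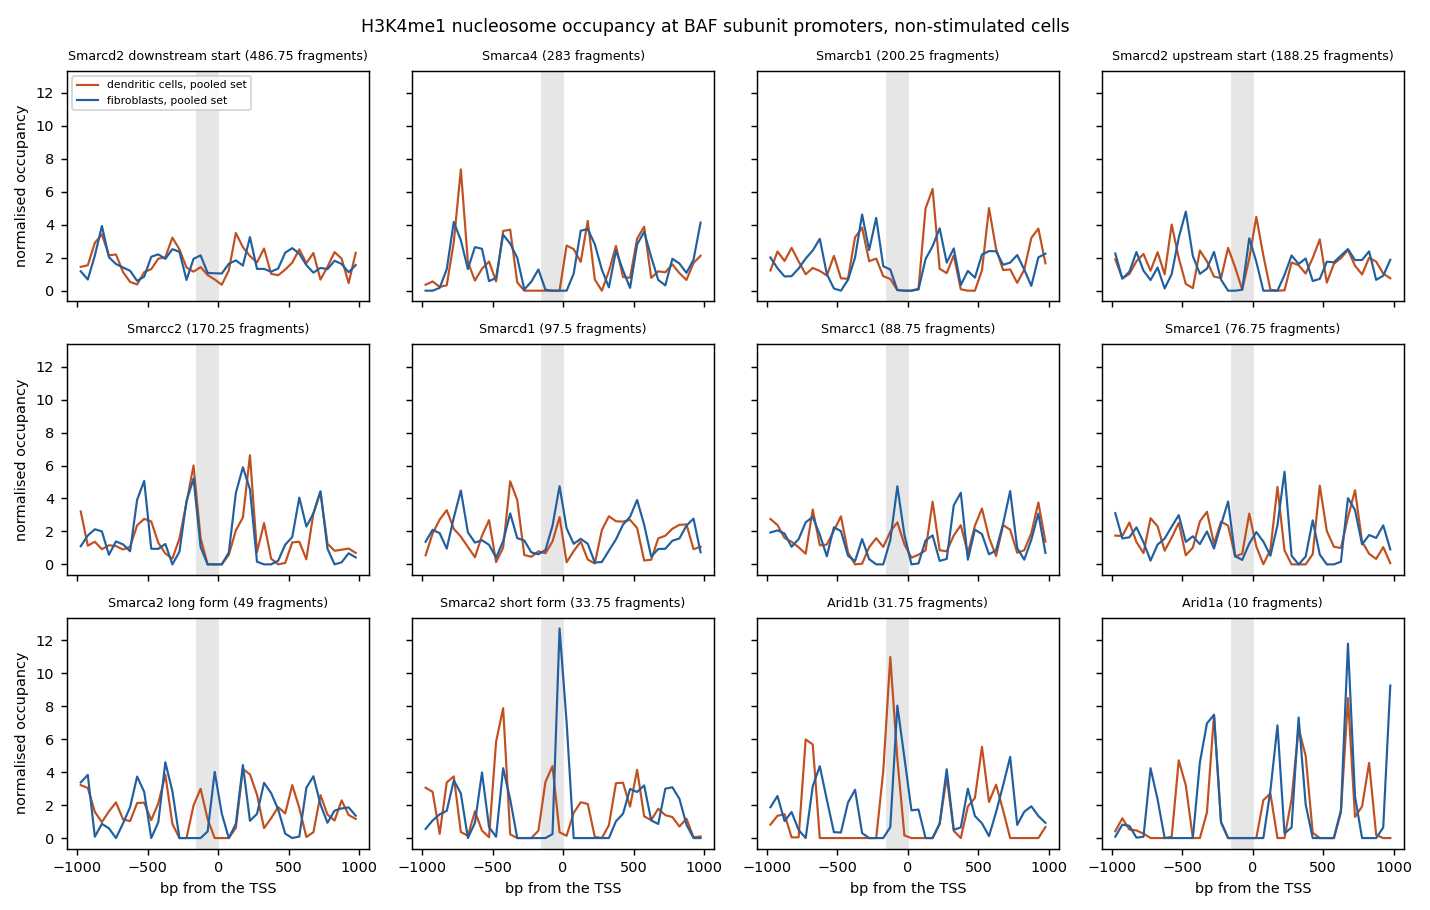
Normalised H3K4me1 nucleosome occupancy (no unit, means of 50 bp windows) against distance from the TSS in bp, for the 12 promoters ordered by coverage, in the pooled sets of non-stimulated DCs (orange) and fibroblasts (blue). The grey band marks the NDR window. In these pooled sets it is empty or nearly so at Smarca4 and Arid1a, which the single libraries did not repeat at Arid1a. It holds high occupancy at Arid1b and, in fibroblasts, at the Smarca2 short form.

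Across the 12 members, NDR occupancy was below 0.5 times the flank at 4 promoters in DCs, 7 after LPS, 5 in fibroblasts and 7 after TNF-α. Over all high-coverage promoters the share was 40%, 42.7%, 41.7% and 45.0%. To place each promoter on 1 scale, a patterning level was computed, which sums occupancy weighted by the mean profile of active promoters, so that a promoter with that arrangement scores high and one without it scores near 0. In fibroblasts, Smarca4 had a patterning level of 20.6 without stimulation and 34.7 after TNF-α, at the 82.1st and 97.2nd percentiles of active promoters, and Smarcb1 had 14.9 and 21.6. The Smarcd2 downstream start had 2.59 and −2.19. Arid1b had −29.2 and −1.24, at the 0.124th and 15.9th percentiles, and so ran against the arrangement of active promoters in these sets. It rests on 31.75 fragments, and in the single H3K4me1 libraries its patterning level was above 0 in 3 of 8.

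Without replicates, differences between pooled sets are given as medians over the 5 high-coverage members only. The patterning level of fibroblasts minus DCs had a median of 1.75. That of LPS-stimulated minus non-stimulated DCs had −0.43 (1.11, with the sign turned, on the square root of occupancy). That of TNF-α-stimulated minus non-stimulated fibroblasts had 6.68. In the single control and knockdown libraries, the median TNF-α difference of the same 5 members was instead −0.83. Patterning there was higher after TNF-α at 2 of them and lower at 3.

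The second comparison asked whether loss of the ATPases changed the promoters of the complex's own subunits. In 4 control and 4 knockdown libraries, fitted with knockdown and stimulation as terms, none of the 5 high-coverage members passed an adjusted p of 0.05 (limma, Benjamini-Hochberg over 13559 promoters) in patterning level, NDR ratio or +1 ratio. No other promoter did either (0% called for each measure), and 5.84%, 5.25% and 5.38% of promoters had an unadjusted p under 0.05. Control and knockdown libraries overlapped at all 12 members in each measure, whereas 2.97%, 2.68% and 2.87% of high-coverage promoters had groups without overlap. The study describes its replicates as biological, but the labels do not tie them to separate cultures, so the p-values measure the spread between these libraries, which may in part be technical.

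The Smarca4 promoter, that of a targeted gene, had an NDR occupancy of 0.787, 0, 0 and 0 in control libraries (replicates 1 and 2 without stimulation, then 1 and 2 with TNF-α) and 1.05, 0.973, 0 and 0 in knockdown libraries. Its patterning level was 3.70 ± 3.60 (SD, n = 4) in control and 1.79 ± 9.83 (SD, n = 4) in knockdown libraries, overlapping widely. The difference was −1.90 ± 3.67 (SE), with an adjusted p of 0.97 and a 95% interval from −10.6 to 6.79 (limma). Single libraries carried this value, which was −5.64 without replicate 2 of the stimulated knockdown and 0.14 without replicate 1 of it. In replicate 2 libraries alone it was 1.93 (adjusted p = 0.98, limma). The NDR ratio, log2 of NDR over flank after adding 0.1 to both, was 0.99 ± 0.78 (SE) higher in knockdown, with an adjusted p of 0.92 and an interval from −0.87 to 2.86. It fell to 0.15 without replicate 2 of the non-stimulated control.

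The other targeted gene, Smarca2, could be fitted only with all 24867 promoters that had a fragment in every library. The long form had a patterning level of 12.6, −3.54, 4.22 and 8.38 in control libraries and 7.58, 11.5, 4.38 and −2.18 in knockdown libraries, which differed by −0.11 ± 4.02 (SE, adjusted p = 1.00, limma). At the short form, control libraries had 2.69, −20.5, −10.1 and −2.07 and knockdown libraries 5.7, 10.4, 2.36 and 1.24. Knockdown values were mostly higher but overlapped with the control, and the difference of 12.4 ± 4.68 (SE) had an unadjusted p of 0.022 and an adjusted p of 0.97. Its NDR log2 ratio was lower in knockdown, by −2.03 ± 0.90 (SE), with an unadjusted p of 0.053 and an adjusted p of 0.97 (limma), the largest NDR difference among the members.

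Smarcb1 kept an NDR in both arms. Its NDR occupancy was 0.39, 0, 0.00833 and 0.555 in control and 0.264, 0.217, 0.21 and 0.0944 in knockdown libraries, below the flank in 7 of 8. The NDR log2 ratio was −1.71 ± 1.76 (SD, n = 4) in control and −1.70 ± 0.31 (SD, n = 4) in knockdown libraries. The difference was 0.01 with an interval from −2.10 to 2.12 (limma), so a change of up to about that size in either direction was not detectable here.

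Smarcc2 had an NDR occupancy of 0, 0, 0.733 and 1.34 in control and 1.17, 0.548, 0 and 1.3 in knockdown libraries. The groups overlapped, and the log2 ratio was 1.15 ± 1.09 (SE) higher in knockdown, with an adjusted p of 0.93 (limma). Leaving out 1 library moved it between 0.53 (without replicate 1 of the non-stimulated knockdown) and 2.24 (without replicate 1 of the stimulated knockdown). Without stimulation the difference was 3.18 ± 1.16 (SE), with an unadjusted p of 0.036 and an adjusted p of 0.84 (limma). In that contrast 5.64% of high-coverage promoters had an unadjusted p under 0.05, and 0% were called. The interaction with stimulation did not pass the test (−4.05 ± 1.64, SE, adjusted p = 0.82, limma).

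The largest member difference in patterning level was at the Smarcd2 upstream start. Control libraries had −0.962, 0.413, 3.15 and −16.1 and knockdown libraries 15.5, 2.96, 24.1 and 3.52, and the groups overlapped between 2.96 and 3.15. The difference was 14.9 ± 6.34 (SE), at the 99.8th percentile of absolute differences, with an adjusted p of 0.84 (limma). It fell to 9.96 without replicate 2 of the stimulated control, which alone had NDR occupancy in this promoter (2.59, against 0 in the other 7 single libraries), and to 9.71 without replicate 1 of the stimulated knockdown. In replicate 2 libraries alone it was 11.1. The Smarcd2 downstream start differed by −1.81 ± 2.41 (SE, adjusted p = 0.96, limma).

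Over all 12 members in the fit of 24867 promoters, patterning level was higher in knockdown at 4 and lower at 8, with a median difference of −1.01 beside 0.06 over all promoters, and 2 members had an unadjusted p under 0.05, against 4.96% of promoters. The NDR log2 ratio was higher at 7 and lower at 5, with a median of 0.05 beside 0.01, and no member had an unadjusted p under 0.05. Members at low coverage had wide errors: Smarcd1 differed by −7.49 ± 6.10 (SE) in patterning level, Smarcc1 by −3.91 ± 3.80, Smarce1 by −2.60 ± 3.97, Arid1a by 3.63 ± 3.94 and Arid1b by −0.22 ± 4.93.

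**Figure D2:**
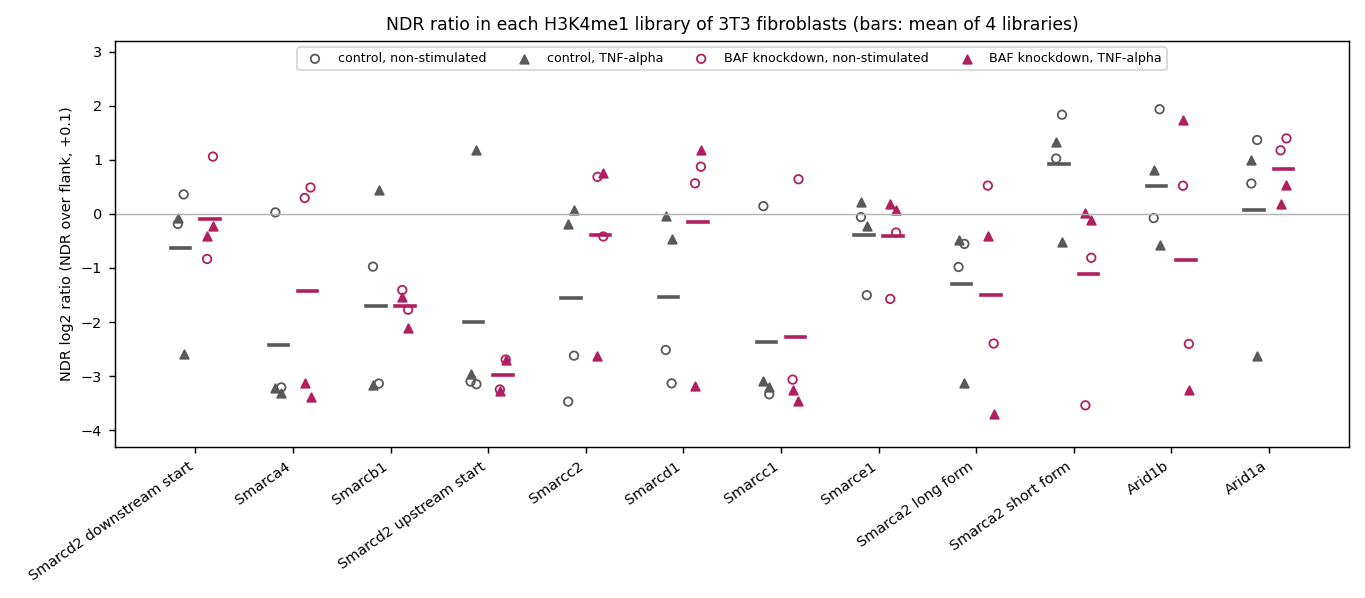
NDR log2 ratio (NDR over upstream flank, 0.1 added to both) of each promoter in the 8 single H3K4me1 libraries of fibroblasts, with control in grey, BAF knockdown in magenta, open circles without stimulation, filled triangles after TNF-α and bars for the mean of 4 libraries. Points of the control and knockdown overlap at each of the 12 promoters.

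**Figure D3:**
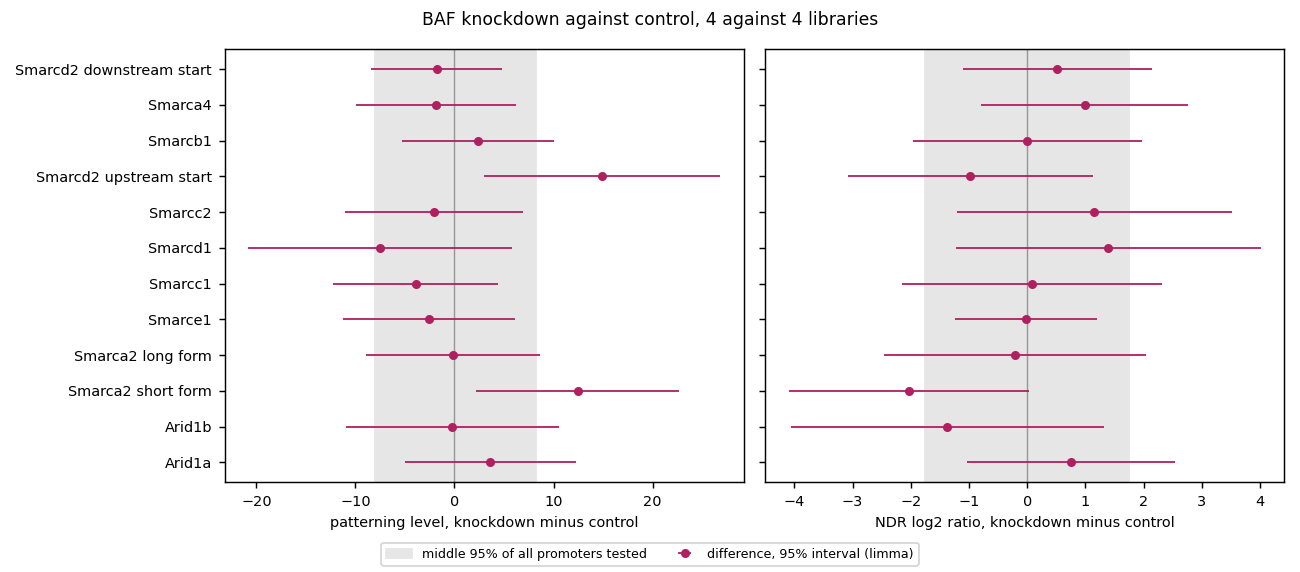
Knockdown minus control in patterning level (left) and NDR log2 ratio (right) with 95% intervals from limma, over 4 control and 4 knockdown libraries. Grey marks the middle 95% of all 24867 promoters, and only the Smarcd2 upstream start and the Smarca2 short form lie outside it in patterning level and the Smarca2 short form alone in NDR ratio.

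TNF-α was compared in the same libraries. Smarca4 had the largest NDR difference of the 5 high-coverage members: its NDR occupancy was 0.787, 0, 1.05 and 0.973 in the 4 non-stimulated libraries and 0 in all 4 stimulated ones, a single non-stimulated control library matching them. The log2 ratio was lower after TNF-α by −2.66 ± 0.78 (SE), at the 99.4th percentile of absolute differences, with an unadjusted p of 0.012 and an adjusted p of 0.79 (limma). Its patterning level was higher by 9.12 ± 3.67 (SE, adjusted p = 0.87, limma). In the pooled fibroblast sets, however, Smarca4 was depleted before stimulation as well (0.0187 and 0). No promoter passed the adjusted threshold for TNF-α in any measure (0% called, with 5.68%, 5.75% and 5.21% at an unadjusted p under 0.05). No member was called for the interaction of knockdown and stimulation, nor was any of the 13559 high-coverage promoters (0% called in each measure).

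The pol-II libraries hold chromatin recovered with phosphorylated polymerase from TNF-α-stimulated fibroblasts. The antibody goes together with paired-end rather than single-end sequencing, so these cannot be told apart, and values are given without a test. Bins with a fragment were more frequent at the members than over all high-coverage promoters, with 80.5% and 88.1% against 69.2% and 80.0% in the S7P libraries and 90.6% against 81.2% in the S5P library. In the H3K4me1 set of stimulated fibroblasts, the order was the reverse, with 69.6% against 82.0%. That reference was selected by coverage, which 7 of the 12 members failed, so a lower share there was in part set in advance. Against all promoters active in fibroblasts, the members' median percentile was 72.9, 79.2 and 79.5 beside 70.2, 69.9 and 70.4 in the pol-II libraries. It was 31.3 beside 42.6 in the H3K4me1 set.

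The shift was wide at several low-coverage members. Arid1a had 46.0% of bins covered in H3K4me1 chromatin of stimulated fibroblasts, at the 5.17th percentile of all promoters, and 82.5%, 95% and 96.5% in S7P replicates 1 and 2 and S5P, at the 73.8th, 86.1st and 81.2nd percentiles. Arid1b had 48.0% against 92.0%, 92.5% and 96.0%. Of the 7 low-coverage members, 1 was above the median promoter in the H3K4me1 set, and 6, 5 and 6 in the pol-II libraries. Low-coverage promoters of active genes in general showed the same shift, with 29.1% above the median in H3K4me1 chromatin and 69.3%, 66.6% and 75.8% in pol-II chromatin.

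**Figure D4:**
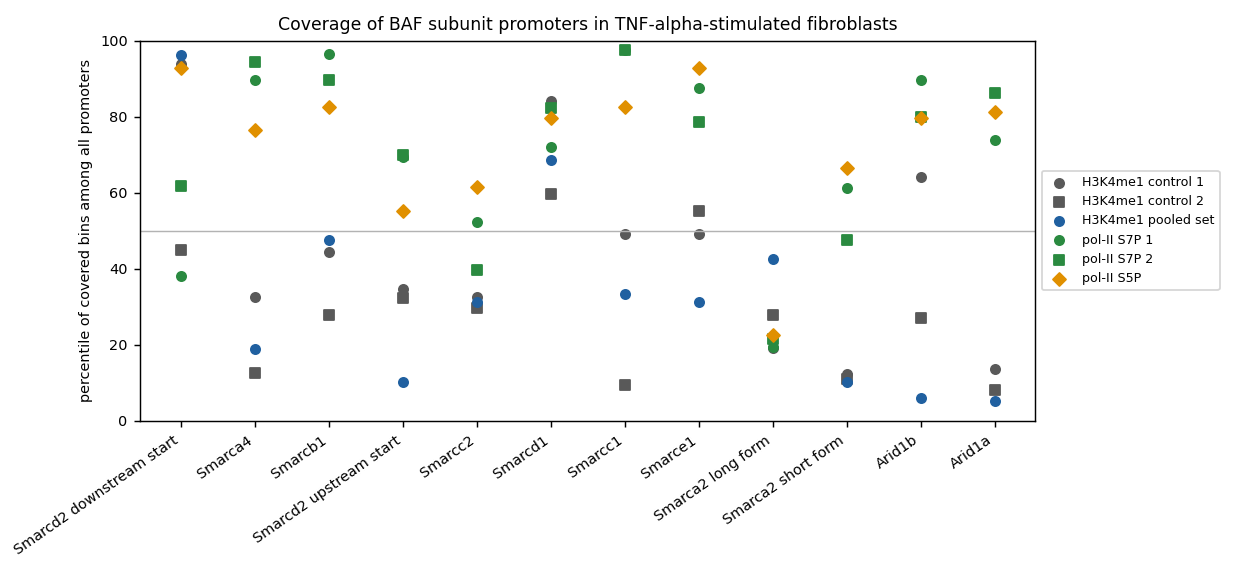
Percentile of each member among all 25881 promoters by the share of bins with a fragment, in 6 libraries of TNF-α-stimulated fibroblasts (H3K4me1 control replicates 1 and 2 in grey, H3K4me1 pooled set in blue, S7P replicates 1 and 2 in green, S5P in orange), with a line at the 50th percentile. All pol-II libraries lie above all H3K4me1 libraries at Smarca4, Smarcb1, Smarcc1, Smarce1, Arid1a, Arid1b and the Smarca2 short form. The Smarca2 long form stays low in all 6.

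Within pol-II chromatin an NDR below 0.5 times the flank in all 3 libraries was found at 2 of the 12 members. By library it was found at 4, 3 and 5 members in S7P replicates 1 and 2 and S5P. The shares of high-coverage promoters were 37.2%, 34.4% and 50.9%. Smarcb1 had an NDR occupancy of 0.357 and 0.149 in S7P and 0.169 in S5P, and the Smarcd2 upstream start 0, 0.0014 and 0. Smarca4 had 0.363, 0.497 and 0.0228 and Smarcc1 0.69, 0.478 and 0.035, lower in S5P than in either S7P library. Active high-coverage promoters in general went the same way, with NDR over flank of 0.734 and 0.686 in S7P and 0.444 in S5P. Smarcc2 had 0.601, 0.372 and 0.247, below 0.5 times the flank in S5P only, and Smarce1 had 0.506, 0.458 and 1.25, never below it.

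The DNA-binding subunits and the Smarca2 long form had no NDR below 0.5 times the flank at the annotated position. Arid1b had an NDR occupancy of 1.19, 2.11 and 2.31, above its flank each time, and its emptiest 150 bp within 600 bp of the TSS lay downstream, centred at 135, 145 and 155 bp. Smarca2 long form had 2.32, 0.847 and 2.67, and Arid1a had 1.44, 1.7 and 0.684. Smarcd1 had 1.5, 1.23 and 1.1, also above its flank. The profiles of both S7P libraries correlated across bins with r = 0.68 at Smarca4 and 0.60 at Smarcc1 but 0.03 at Smarcc2, beside a median of 0.24 over high-coverage promoters.

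Promoters of 21 further genes of BAF, PBAF and ncBAF complexes were compared as a list, giving 22 promoters, of which 13 had high coverage. None was called for the knockdown in patterning level or NDR ratio (limma). The +1 ratio was fitted only for the 13 with high coverage, and none of these was called. In the fit of 24867 promoters, the 4 largest differences in patterning level among the 22 were at Actl6a (9.29 ± 3.73, SE), an actin-related subunit with low coverage, at Ss18l1 (−8.35 ± 5.27), an Ss18 paralog, at Pbrm1 (7.38 ± 4.58), a bromodomain subunit of PBAF, and at Dpf3 (−6.70 ± 3.24), a PHD-finger subunit, each with an adjusted p of 0.97 (limma). Actl6a had 1.09, −5.53, −1.31 and 5.59 in control and 8.89, 17.9, 6.13 and 4.05 in knockdown libraries, which overlapped. Dpf3 had 9.43, 13.0, 10.7 and 15.6 in control and 7.94, 7.5, −1.77 and 8.27 in knockdown libraries, without overlap. The groups did not overlap at 2.97% of high-coverage promoters either, and Dpf3 was named for its large difference. In fibroblasts without stimulation 11 of these 22 promoters had an NDR below 0.5 times the flank, beside 5 of the 12 members.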

How the data were processed

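Occupancy was analysed in 15 ChIP-MNase libraries. Per the study's methods and labels, the authors aligned reads to mm9 with bowtie, removed excess duplicates, counted nucleosomal fragments in 10 bp bins, scaled them to the surrounding chromatin and smoothed them. The deposited signal is thus a relative occupancy with no read counts (200 bins per TSS, and an empty cell was read as 0). The authors' promoter annotation gave a coverage score (fragments per promoter) and FPKM of public RNA-seq from before stimulation, used only within a cell-type. Its 2 columns of the authors' own expression changes upon stimulation were not used, so inducible genes were not left out of the active set.

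RefSeq names were matched to symbols for 98.1% of rows. Patterning levels used the mean profile of active high-coverage promoters of the same cell-type, scaled from 0 to 1 and centred. Ratios used a pseudocount of 0.1. Single libraries were fitted with limma 3.58.1 in R 4.3.3 (knockdown and stimulation as terms, 5 residual degrees of freedom), after tests on simulated data. Pooled and pol-II libraries, without comparable replicates, gave values only. Named were all 12 members, and of the other subunits any that passed the test or otherwise the 4 of all 22 promoters with the largest patterning difference. Alternatives covered a replicate block, leaving out each library, replicate 2 alone, scaling, pseudocount, window, template and coverage. Members and lists were chosen with earlier results of these data known.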

Additional observations from a re-analysis of the deposited data

How the results depend on the processing

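The count of promoters past an adjusted p of 0.05 (limma, Benjamini-Hochberg) was 0 for the knockdown and for TNF-α in each measure and under every alternative run, with 1 exception. For the TNF-α effect on the NDR ratio, leaving out 1 library gave 0 to 2 promoters, the 2 being Gm4070 and Gvin1 without replicate 1 of the stimulated control, neither of them a BAF gene and both named after their values were seen. No member passed in any alternative. The same replicate numbers did not pair the libraries (correlations of deviations from the group means of 0.000413 to 0.01203), and a fit with the replicate number as a block also called 0 promoters for the knockdown, with 778, 715 and 740 at an unadjusted p under 0.05 in patterning level, NDR ratio and +1 ratio. In the pooled sets, the median LPS difference of the 5 high-coverage members was −0.43 and became 1.11 on the square root of occupancy. The cause was not tested. Depth is not given by these files, and at low-coverage members few fragments limit each value. For the 5 high-coverage members the unadjusted 95% interval of the knockdown difference in patterning level reached from 5.71 to 15 to either side. The adjusted test is stricter than these intervals, so changes larger than this could also go uncalled.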
